A study of Mus musculus with 6 samples.

Results

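The kynurenine pathway was read through the 7 genes Kmo, Kynu, Ido1, Tdo2, Afmid, Haao and Qprt. It was examined in mouse pro-B cells labelled knockout for the transcription factor Foxo1. The genes were chosen by symbol, and each was represented by the brightest probe set, the group of array probes summarised to 1 value, that the platform table pairs with that symbol alone. All 7 were found among 19937 genes, each with 1 probe set. Kmo heads the set because its difference between the groups was already known, so the values of these 7 genes in that contrast are given as a description, with no p-value, and nothing is read from how many of them pass a test.

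The arrays compared tamoxifen samples 1 to 3, from cells given 1 µM tamoxifen for 2 days and labelled Foxo1 knockout, with untreated samples 1 to 3, from the same cells left untreated and labelled WT. Both groups carried Foxo1 f/f and ERCre on a C57/BL6 background, so the untreated cells also held the floxed alleles and the Cre, and the drug was not tested here on cells that keep Foxo1. Both were pro-B cells transformed by vAbl, a viral oncogene, and it is not stated how many lines or cultures the samples came from, so that the spread within a group may be technical. In bulk RNA, fewer cells expressing a gene and less RNA per cell cannot be told apart.

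The kynurenine pathway is the main route of tryptophan breakdown. Ido1 and Tdo2 open the indole ring of tryptophan, Afmid releases kynurenine, Kmo hydroxylates kynurenine, Kynu cleaves the product, Haao opens the ring of hydroxyanthranilate, and Qprt turns quinolinate into a precursor of NAD. The complete route to NAD is best known from liver, Ido1 is induced by interferon gamma, and Kmo is known from liver, kidney and cells of the macrophage lineage. Kynurenine and some of its derivatives can bind the aryl hydrocarbon receptor, AHR, which controls genes of xenobiotic metabolism.

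Foxo1 was read as a check of the labels. Its intensity was 116, 151 and 134 in tamoxifen samples 1, 2 and 3, against 806, 624 and 512 in untreated samples 1, 2 and 3. The tamoxifen values stayed above the medians of their arrays, and the labels do not say whether this probe set lies within the deleted part. The log2 fold change was -2.13 ± 0.15 (SE; limma adjusted p = 0.0178). The limma adjusted p was 0.05003 under scaling to a common median and 0.0936 with the replicate number as a block. With 1 sample left out it ran from 0.0276, without untreated sample 1, to 0.156, without tamoxifen sample 3. The medians of the 6 arrays lay between 100.9 and 109.1, their lower quartiles between 43.3 and 47.3 and their upper quartiles between 273.1 and 298.8, and having only 6 arrays limits how precisely any gene is measured. Of 11 pro-B cell markers 10 had a value, and their summed intensity was 20366 to 21628 in tamoxifen samples and 17774 to 21970 in untreated samples. None of the 10 lay below 522 in any sample. The sum does not show differences of opposite sign: 6 log2 fold changes were positive and 4 negative, from -0.51 to 0.52. All tamoxifen values lay above all untreated ones in 4 of the 10 and below in 1, beside 4.25% and 4.26% of all probe sets. An unadjusted limma p under 0.05 was seen for 6, beside 5.11% of all probe sets, and 0 passed after adjustment.

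The bases just upstream of the start sites of 3 of these genes are shown because these genes differed in the size or direction of their difference: Kmo had the largest difference of the 7, Haao was higher in every tamoxifen sample, and Qprt had the most negative value. They are the 250 bases before the RefSeq start site on build GRCm38.p6, printed 5′ to 3′ on the transcribed strand of Kmo (chr1:175631943-175632192, plus strand), Haao (chr17:83846791-83847040, minus strand) and Qprt (chr7:127122030-127122279, minus strand). Capitals mark TGTTT or its reverse complement AAACA, the core shared by forkhead recognition sequences.
Kmo: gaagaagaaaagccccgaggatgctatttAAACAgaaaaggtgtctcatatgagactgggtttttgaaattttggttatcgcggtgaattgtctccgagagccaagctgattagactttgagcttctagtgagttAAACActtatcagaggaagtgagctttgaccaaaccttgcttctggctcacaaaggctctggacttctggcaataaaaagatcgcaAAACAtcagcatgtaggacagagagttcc
Haao: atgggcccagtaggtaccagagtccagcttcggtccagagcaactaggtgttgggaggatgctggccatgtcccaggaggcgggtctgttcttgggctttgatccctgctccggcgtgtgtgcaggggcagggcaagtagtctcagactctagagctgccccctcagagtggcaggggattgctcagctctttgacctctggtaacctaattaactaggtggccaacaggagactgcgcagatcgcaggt
Qprt: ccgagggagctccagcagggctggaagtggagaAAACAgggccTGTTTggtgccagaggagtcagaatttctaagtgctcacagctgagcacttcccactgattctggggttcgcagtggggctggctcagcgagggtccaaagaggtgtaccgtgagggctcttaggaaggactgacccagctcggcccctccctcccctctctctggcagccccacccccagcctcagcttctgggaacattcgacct

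The table used holds upstream sequence for 5 of the 7 genes: Kmo, Haao, Qprt, Tdo2 and Afmid. The FOXO recognition sequence TGTTTAC, searched on both strands, was in 0 of these 5 windows and in 3.17% of all 32851 windows of the same length. The shorter core TGTTT, searched on both strands after the sequences had been seen, was in 3 of the 5 (Kmo, Qprt and Tdo2) and in 46.4% of all windows. The Kmo window held 3 copies, beginning 221, 115 and 29 bases before the start site, and 6.77% of all windows held 3 or more. That cut-off is Kmo's own count, so the share is no test of whether its window is unusual. The Qprt window held 2, at 217 and 207 bases, and the Tdo2 window 1, at 180 bases. These are matches of letters and not measured binding sites.

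Kmo, kynurenine 3-monooxygenase, had 277, 202 and 186 units of intensity in tamoxifen samples 1, 2 and 3, against 58.0, 80.0 and 57.0 in untreated samples 1, 2 and 3. Every tamoxifen sample lay above every untreated sample. The mean was 222 ± 48.7 in tamoxifen samples and 65.0 ± 13.0 in untreated samples (SD, n = 3 each), a ratio of the means of 3.41. On the log2(intensity + 16) scale, on which every fold change here is given and which understates the change of dim genes, the log2 fold change was 1.53 ± 0.17 (SE), or 2.90-fold. Of 19937 genes, 7 including Kmo had a difference of that size or larger in either direction, which is 0.0351%. Kmo was chosen with this difference known, so the share describes its size and is no test of it. The untreated values lay between the lower quartile and the median of their arrays, and the tamoxifen values between the median and the upper quartile of theirs.

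With the pseudocount raised to 64 the log2 fold change of Kmo was 1.13, and with 1 it was 1.74. With any one sample left out it ran from 1.37, without tamoxifen sample 1, to 1.66, without untreated sample 2. Those samples held the highest value of their group. Across the 7 genes, the SD within groups on the normalised log2 scale was 0.25 for Kmo and 0.38 for Kynu, and between 0.035 and 0.11 for the other 5.

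**Figure D1:**
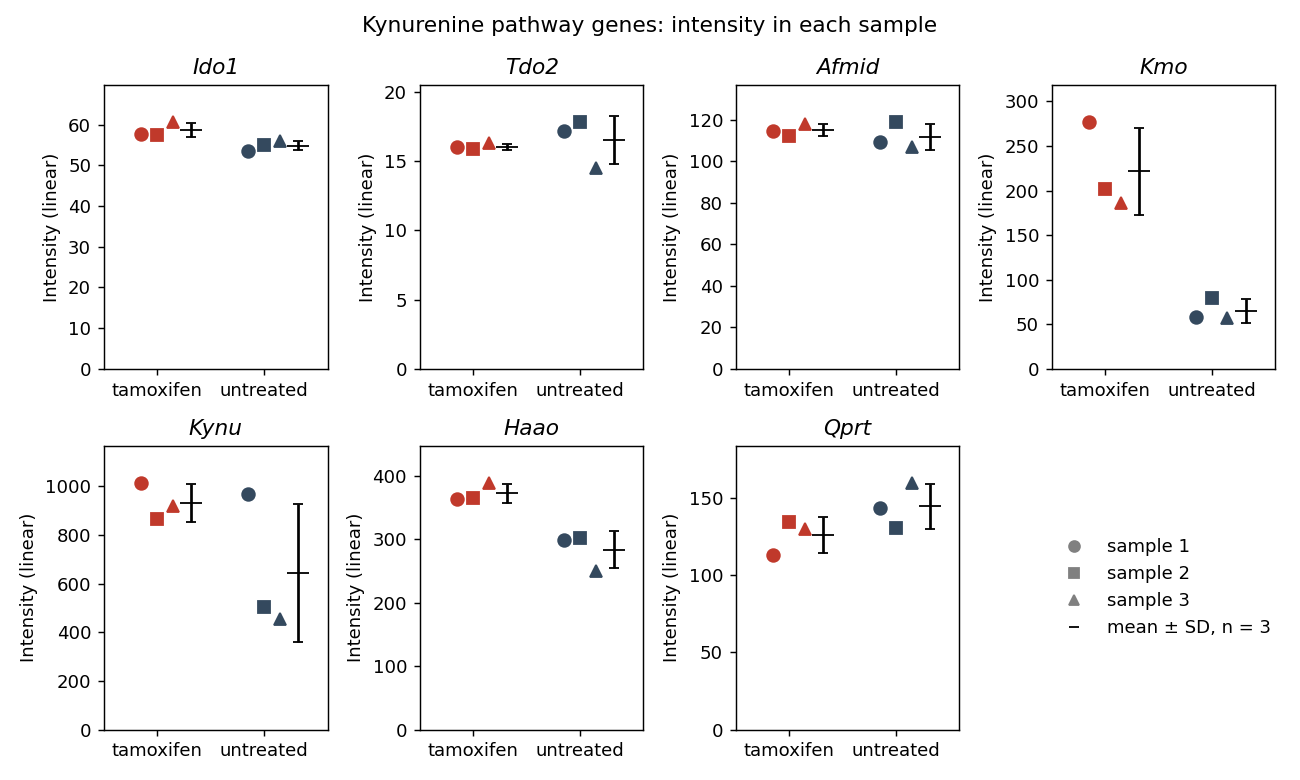
Deposited linear intensity (vertical axes, each starting at 0) of the 7 genes in tamoxifen samples (red) and untreated samples (dark blue), with the sample number as the marker shape and bars for the mean ± SD of 3 samples. The Kmo groups lie apart (186 to 277 in tamoxifen samples, 57.0 to 80.0 in untreated samples), and untreated sample 1 stands at the tamoxifen level for Kynu.

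Kynu, kynureninase, had intensities of 1015, 864 and 917 in tamoxifen samples 1, 2 and 3, against 969, 504 and 456 in untreated samples 1, 2 and 3. The groups overlapped through untreated sample 1, which lay among the tamoxifen values, while the other two untreated samples lay well below all of them. The mean was 932 ± 76.5 in tamoxifen samples and 643 ± 283 in untreated samples (SD, n = 3 each). The log2 fold change was 0.59 ± 0.25 (SE), and 0.90 without untreated sample 1. All 6 values lay above the upper quartile of every array.

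Haao, the dioxygenase that acts after Kynu, had 363, 366 and 389 units in tamoxifen samples 1, 2 and 3, against 299, 302 and 250 in untreated samples 1, 2 and 3. The groups did not overlap. The mean was 373 ± 14.5 in tamoxifen samples and 284 ± 29.1 in untreated samples (SD, n = 3 each), a log2 fold change of 0.37 ± 0.08 (SE), or 1.29-fold. With any sample left out it stayed between 0.31 and 0.41.

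**Figure D2:**
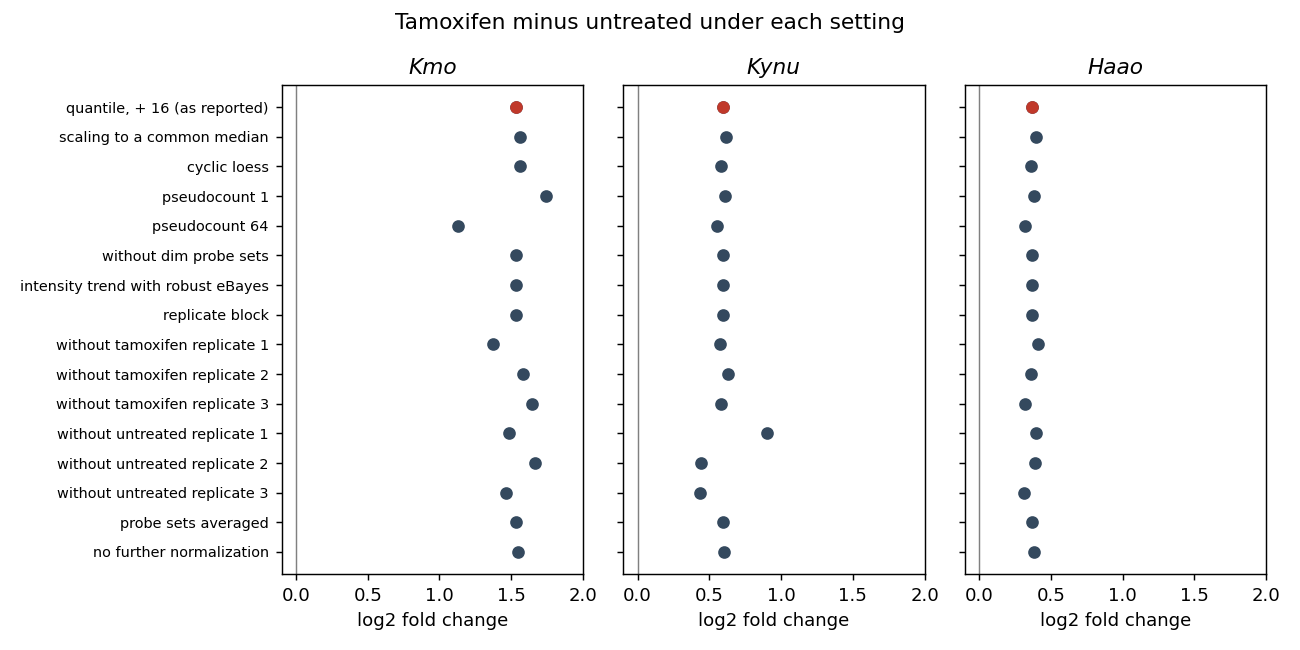
Log2 fold change, tamoxifen minus untreated (horizontal axes), of Kmo, Kynu and Haao under each processing setting (rows), with the value as reported in red. Kmo stays between 1.13 and 1.74, Kynu between 0.44 and 0.90 and Haao between 0.31 and 0.41.

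Qprt, quinolinate phosphoribosyltransferase and the last enzyme of the route, had 113, 135 and 130 units in tamoxifen samples 1, 2 and 3, against 143, 131 and 160 in untreated samples 1, 2 and 3. The groups overlapped, since tamoxifen sample 2 lay above untreated sample 2. The log2 fold change was -0.17 ± 0.09 (SE), the opposite sign to Kmo, Kynu and Haao. With 1 sample left out it ran from -0.24, without untreated sample 2, to -0.11, without untreated sample 3.

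The enzymes that act before Kmo had smaller differences, between -0.02 and 0.09 on the log2 scale. Ido1, indoleamine dioxygenase, had 57.7, 57.5 and 60.6 units in tamoxifen samples 1, 2 and 3, against 53.6, 55.0 and 56.0 in untreated samples 1, 2 and 3, which is a separation of the groups by a log2 fold change of 0.09 ± 0.06 (SE). These values lie not far above the arrays' lower quartiles. Tdo2, tryptophan dioxygenase, which is abundant in liver, lay between 15.8 and 16.3 in tamoxifen samples and between 14.5 and 17.8 in untreated samples, below the lower quartile of every array. No detection call is given with these values, so whether the dim probe sets of Ido1 and Tdo2 measured a transcript was not tested. Afmid, arylformamidase, had 115, 112 and 118 units in tamoxifen samples, against 109, 119 and 107 in untreated samples, with overlapping groups and a log2 fold change of 0.05 ± 0.07 (SE). It was 0.0081 without untreated sample 3 and 0.099 without untreated sample 2.

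In 3 of the 7 genes (Kmo, Haao and Ido1) all tamoxifen intensities lay above all untreated ones, as in 4.25% of all 34760 probe sets, and in 0 of the 7 they all lay below, as in 4.26% of all probe sets. Groups without overlap in either direction made up 8.51% of all probe sets. With limma and Benjamini-Hochberg adjustment over all probe sets, 0 of the 7 passed an adjusted p of 0.05, where 0.0575% of all probe sets passed. Of the 7 log2 fold changes 5 were positive, with a median of 0.09, beside a median of -0.01 over all 19937 genes. The 7 genes were chosen with this contrast known, so nothing is read from these counts.

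The genes next to Kmo on its chromosome showed smaller differences. In the RefSeq table the protein-coding genes on either side are Fh1, fumarate hydratase, and Opn3, an opsin. They were looked up after the Kmo values had been seen. Opn3 had 159, 155 and 160 units in tamoxifen samples 1, 2 and 3, against 133, 118 and 147 in untreated samples 1, 2 and 3, and its log2 fold change was 0.23 ± 0.08 (SE; limma adjusted p = 0.882). Fh1 had a log2 fold change of 0.04 ± 0.09 (SE). Over the 14 measured protein-coding neighbours of the 7 genes, 0 passed limma and the log2 fold changes ran from -0.13 to 0.29. Arhgap15, a GTPase-activating protein beside Kynu, had 951, 1359 and 1296 units in tamoxifen samples and 816, 1450 and 1315 in untreated samples. In each group Arhgap15 was lowest and Kynu highest in sample 1.

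Around the pathway, 72 genes were taken from lists of side enzymes, tryptophan supply, NAD synthesis and use, kynurenine sensing, regulators of Ido1 and cofactor supply. Of these 65 had a value, 0 rose and 0 fell by limma with adjustment over all probe sets, where 0.0374% of all probe sets rose and 0.0201% fell. An unadjusted p under 0.05 was seen for 6 of the 65, beside 5.11% of all probe sets. The 65 log2 fold changes had a median of -0.01, the same as all genes to 2 decimals, with 30 positive and 35 negative.

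**Figure D3:**
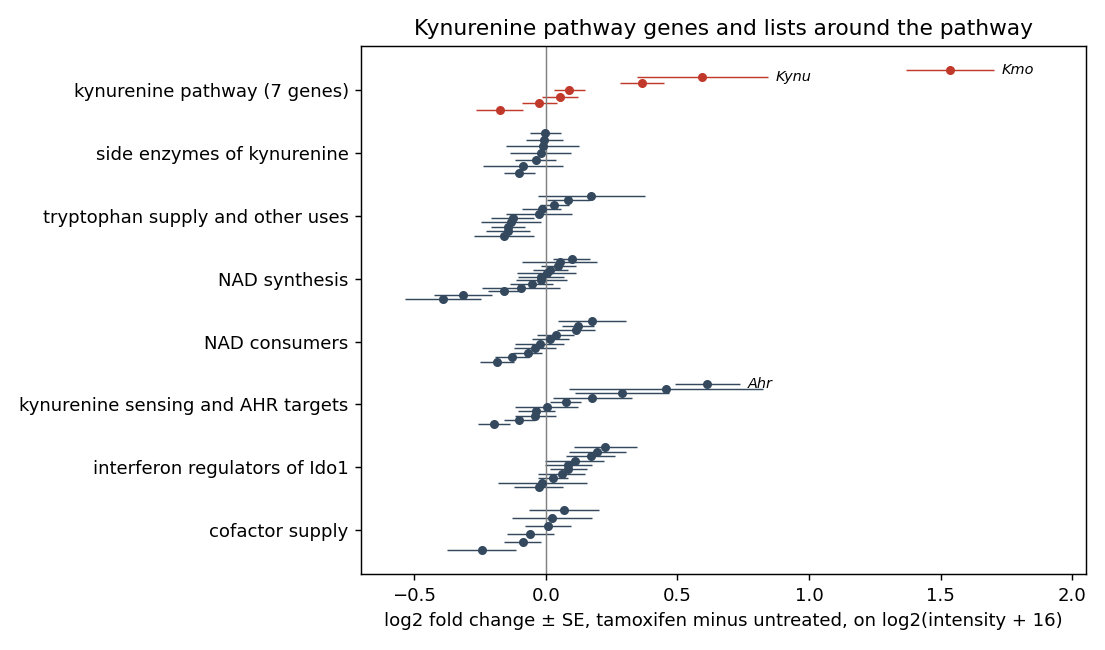
Log2 fold change ± SE (horizontal axis, tamoxifen minus untreated, on the log2(intensity + 16) scale) of the 7 kynurenine pathway genes (red) and of 65 genes around the pathway (dark blue), 1 point per gene in rows by list. Kmo, at 1.53, lies to the right of every other gene drawn, followed by Ahr at 0.61 and Kynu at 0.59.

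The side enzymes of the pathway, not all of which act on kynurenine itself, had values near 0. All 7 of this list were measured and all 7 had a negative log2 fold change, between -0.10 and -0.0016, and 0 passed limma. The aminotransferases Kyat1, Kyat3 and Aadat, which make kynurenic acid, had -0.10 ± 0.06, -0.01 ± 0.14 and -0.0052 ± 0.071 (SE). Ido2, a relative of Ido1 that lies next to it, had -0.02 ± 0.12 and averaged 85.5 ± 17.5 units in tamoxifen samples and 87.0 ± 1.92 in untreated samples (SD, n = 3 each). Acmsd, which diverts the product of Haao away from NAD, was dim, at 34.7 ± 2.49 units in tamoxifen samples and 35.0 ± 1.96 in untreated samples. Within this list the signs of Ido2, Kyat3, Aadat and Acmsd turned under other settings.

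Of 11 genes of tryptophan supply and its other uses 10 were measured, and 0 passed limma in either direction, with 3 positive and 7 negative. Slc7a5 and Slc3a2, which together form a transporter of large neutral amino acids including tryptophan, had 2250 ± 124 and 1291 ± 111 units in tamoxifen samples, against 2456 ± 118 and 1415 ± 111 in untreated samples (SD, n = 3 each). Their log2 fold changes were -0.13 ± 0.08 and -0.14 ± 0.06 (SE), and in both genes the groups overlapped. Slc7a5 had -0.065 without tamoxifen sample 1 and -0.19 without tamoxifen sample 3. Wars, the tryptophanyl-tRNA synthetase, had -0.13 ± 0.11, with -0.025 without untreated sample 1 and -0.20 without tamoxifen sample 1. Il4i1, an enzyme that oxidises tryptophan by another route, has no value here.

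All 12 genes of NAD synthesis were measured and 0 passed limma. Nampt, the enzyme that recycles nicotinamide, had 943, 909 and 905 units in tamoxifen samples 1, 2 and 3, against 1031, 1374 and 1025 in untreated samples 1, 2 and 3. All tamoxifen values were lower, but by a margin smaller than the distance of untreated sample 2 from the other untreated samples. Its log2 fold change was -0.31 ± 0.11 (SE; limma adjusted p = 0.864), and -0.20 without untreated sample 2. The enzymes that take the product of Qprt to NAD, Nmnat1 and Nadsyn1, had 0.02 ± 0.07 and -0.05 ± 0.08. With 1 sample left out Nadsyn1 ran from -0.11, without untreated sample 3, to -0.017, without untreated sample 2. Naprt, which starts from nicotinic acid, had -0.02 ± 0.10. Of NAD consumers 10 of 11 were measured, 0 passed limma, and the median log2 fold change was -0.0027. Among the 6 of these 65 genes with an unadjusted p under 0.05 were Nt5e, Nadk2 and Sirt3, named after their values were seen, at -0.39, -0.16 and -0.18. The other three were Nampt, Ahr and Cyp1a1.

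Ahr, the receptor that binds kynurenine, had the largest difference among the 65. Its intensity was 708, 494 and 557 in tamoxifen samples 1, 2 and 3, against 419, 339 and 347 in untreated samples 1, 2 and 3. The groups did not overlap. The mean was 586 ± 110 in tamoxifen samples and 369 ± 44.3 in untreated samples (SD, n = 3 each), a log2 fold change of 0.61 ± 0.12 (SE), and the limma adjusted p = 0.365 did not pass. Arnt, the partner of the receptor, had 0.08 ± 0.06, and 0.048 without untreated sample 1.

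In the list of kynurenine sensors and AHR targets, which holds Ahr, 10 of 12 genes were measured, 6 with positive and 4 with negative values, the median log2 fold change was 0.04 and 0 passed limma. Cyp1a1, a cytochrome induced through AHR, had 39.9, 47.8 and 46.1 units in tamoxifen samples 1, 2 and 3, against 53.3, 53.0 and 55.4 in untreated samples 1, 2 and 3. All tamoxifen values were the lower ones, with a log2 fold change of -0.20 ± 0.06 (SE; limma adjusted p = 0.744), in a range close to the lower quartile of the arrays. Cyp1b1 had 0.0045 ± 0.12, with a sign that turned under other settings. Tiparp, a target that feeds back on the receptor, had 742, 462 and 475 units in tamoxifen samples and 458, 519 and 451 in untreated samples, so that tamoxifen sample 1 alone stood above the rest. Its log2 fold change was 0.18 ± 0.15 (SE), and 0.0047 without that sample. Gpr35, a receptor for kynurenic acid, had -0.10 ± 0.06.

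The list of Ido1 regulators, which holds Tgfbr2 and Bin1 beside genes of interferon signalling, had 10 of 11 genes measured. It had 8 positive and 2 negative values, a median of 0.09 and 0 past limma. Irf1, an interferon-induced transcription factor, averaged 330 ± 50.3 units in tamoxifen samples and 285 ± 24.8 in untreated samples (SD, n = 3 each), with a log2 fold change of 0.17 ± 0.09 (SE), or 0.091 without tamoxifen sample 1, and its groups overlapped. In the cofactor list, which covers vitamin B6, flavin and haem handling, 6 of 8 were measured and 0 passed limma, with a median of -0.02.

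The markers of other cell types, among them types known to hold the pathway, lay between 22.4 and 252 units in every sample. The 12 myeloid and dendritic cell markers summed to 971 to 995 units in tamoxifen samples and 923 to 1014 in untreated samples, 6 were positive and 6 negative, and 0 passed limma. The markers named here were picked after their values were seen. The macrophage receptor Csf1r had 63.8 ± 0.621 units in tamoxifen samples and 70.6 ± 5.28 in untreated samples (SD, n = 3 each), and Adgre1, the F4/80 antigen, had 32.9 ± 1.85 and 31.3 ± 1.79. Cd68, the brightest of the 12, had 216 ± 12.9 and 213 ± 28.4. All tamoxifen values lay above all untreated ones in 1 of the 12 (Fcgr1) and below in 1 (Csf1r), beside 4.25% and 4.26% of all probe sets. The 8 liver and kidney markers summed to 749 to 829 units in tamoxifen samples and 703 to 783 in untreated samples, and the 6 T and NK cell markers to 304 to 381 and 328 to 415. In both lists 0 passed limma. No value of these arrays is 0, so no marker is listed at 0.

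The 5 genes whose pattern over the 6 samples was most like that of Kmo were Ifi30, Bcar3, Pld4, Spib and Bank1. Likeness was the root mean square difference between normalised log2 values, each gene centred on its own mean, and it ranged from 0.23 for Ifi30 to 0.29 for Bank1. All 5 were higher in every tamoxifen sample, which follows from choosing them by likeness to Kmo over these same samples and is no separate result. Kmo differed from them in its spread: its log2 fold change had an SE of 0.17, against 0.077 to 0.12 for the 5 genes. Kmo was also dimmer, with an untreated mean of 65.0 units, against 126 for Pld4 to 593 for Ifi30. Whether intensity bears on the spread was not tested. In tamoxifen sample 1 Kmo stood 1.06 above its own mean, beside 1.06 for Bank1 and 0.67 to 0.69 for the other four. In untreated sample 2 Kmo lay 0.50 below its mean, the smallest distance of the 6 genes there.

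**Figure D4:**
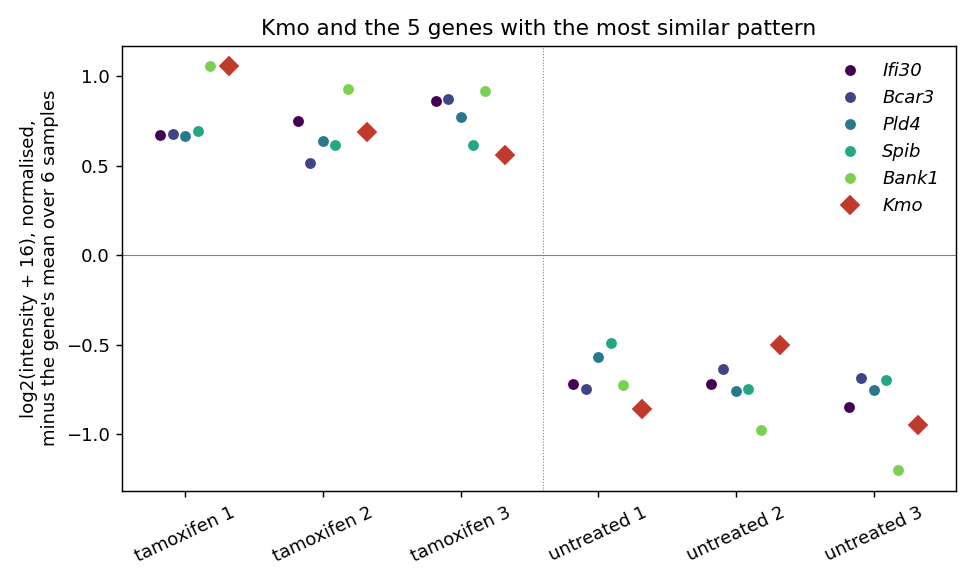
Normalised log2(intensity + 16) minus each gene's mean over the 6 samples (vertical axis) for Kmo (red diamonds) and the 5 genes with the most similar pattern (circles), tamoxifen samples left and untreated samples right of the dotted line. Kmo lies above 0 in all tamoxifen samples, from 0.56 to 1.06, and below 0 in all untreated samples, from -0.95 to -0.50.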

How the data were processed

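Per the labels' protocols, total RNA was extracted with TRIZOL, cleaned on RNeasy columns and made into biotinylated cRNA with a NuGen kit. The authors deposited a linear intensity for each probe set on each array. Their background correction, summarisation and normalization are not given in the sources used here. Groups came from the sample titles.

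Values were converted to log2(intensity + 16), quantile normalised and fitted with limma 3.58.1 in R 4.3.3 (lmFit and eBayes, two-sided), with Benjamini-Hochberg adjustment over 34760 probe sets and a threshold of 0.05. The SE is limma's moderated one. Overlap of groups was judged on deposited intensities. A platform table pairs 21640 probe sets with 1 symbol, 1321 with several and leaves 11799 unnamed. The brightest probe set stood for each of the 954 genes with several.

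The pathway genes and all lists were chosen with earlier results of these data known. Named were the 7 pathway genes, 22 fixed genes whatever their values (1 is not reported here), any list gene past the threshold, and the 5 genes most like Kmo. Other genes named with values were picked after their values were seen. Sequences are from RefSeq tables of GRCm38.p6. The fit was tested on simulated data. Alternatives were other normalizations and pseudocounts, a filter on dim probe sets, an intensity trend, probe sets averaged per gene, the replicate number as a block, and each sample left out. A fit with no further normalization was added after seeing the data. Figures were drawn with matplotlib 3.10.9.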

Additional observations from a re-analysis of the deposited data

How the results depend on the processing

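Kmo, Kynu, Ido1, Afmid and Haao stayed positive and Qprt negative under every alternative run, whereas Tdo2 ran from -0.072 to 0.0077 with 1 sample left out. Kmo ran from 1.37 to 1.66 with 1 sample left out and was 1.13 with a pseudocount of 64, where Ido1 was 0.054; a larger pseudocount shrinks dim genes by construction. The number of the 7 past limma, from which nothing is read, was 1 (Kmo) without dim probe sets and with probe sets averaged per gene, and 0 under the other settings. Of the 65 genes around the pathway 0 passed under any setting. Over all probe sets 20 passed (13 raised, 7 lowered). With 1 sample left out 0 to 6 passed (0 to 4 raised, 0 to 2 lowered), with 6 without untreated sample 1, 2 without tamoxifen sample 1 and 0 otherwise. Scaling to a common median gave 3 (2 raised, 1 lowered), a pseudocount of 1 gave 11 (2 lowered) and the intensity trend 12 (3 lowered). No further normalization gave 12 (2 lowered). The brighter probe sets alone gave 46 (30 raised, 16 lowered) and averaged probe sets 73 (42 raised, 31 lowered). In these last 2 fewer features were tested. The cause of the change in number was not tested for any setting. With the replicate number as a replicate block limma called 0 (0 raised, 0 lowered), while Kmo stayed at 1.53. Same-numbered samples' deviations correlated at 0.256, 0.0547 and 0.302, all positive. Untreated sample 2 correlated best with tamoxifen sample 1, at 0.103. These values do not settle whether the numbers mark pairs, and the fit reported here took none. Signs turned for genes near 0. Under scaling to a common median Kyat3, Aadat and Acmsd had 0.032, 0.0020 and 0.00094, under cyclic loess Aadat and Acmsd had 0.0032 and 0.0065, and with no further normalization Kyat3 and Cyp1b1 had 0.016 and -0.010. With 1 sample left out Ido2 ran from -0.14 to 0.081, Kyat3 from -0.15 to 0.093, Aadat from -0.054 to 0.048, Acmsd from -0.029 to 0.021, Nmnat1 from -0.010 to 0.054, Naprt from -0.074 to 0.076 and Cyp1b1 from -0.081 to 0.12. The files give no background signal or detection call, which limits what can be said of Tdo2, Ido1 and other dim genes.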

Other observations

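Tamoxifen sample 1 held the highest value of 6 of the 10 measured genes of the kynurenine sensing list, and the highest value of 18.9% of all 19937 genes. Beside Ahr and Tiparp, which are given above, Nqo1, a quinone reductase induced through AHR and through other factors, had 117, 41.1 and 37.2 units in tamoxifen samples 1, 2 and 3, against 47.6, 31.8 and 37.0 in untreated samples 1, 2 and 3. Ahrr, a repressor of AHR and itself a target, had 91.9, 57.3 and 62.0 units in tamoxifen samples, against 61.1, 52.2 and 50.3 in untreated samples. The tamoxifen value of sample 1 stood above all others in both genes. Cyp1a1 was lowest in that same sample, at 39.9 units, as were 29.8% of all genes, the largest share of the 6 samples. Nqo1 and Ahrr were named after their values were seen, and neither passed limma (adjusted p of 0.9995 for both, log2 fold changes of 0.46 ± 0.37 and 0.29 ± 0.18, SE). Kmo and Kynu were also highest in tamoxifen sample 1, and the part that sample plays in their values was not tested beyond leaving it out.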
